A study of Mus musculus with 20 samples.

Results

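ISG15 is a small ubiquitin-like protein that cells join to other proteins, and the 7 genes described here encode ISG15 itself (Isg15), the enzymes that attach it (Uba7, Ube2l6, Herc6 and Trim25), the protease that removes it (Usp18) and a large ubiquitin ligase that binds proteins carrying it (Rnf213). They were taken by symbol from 22180 genes measured in the dorsal striatum of 20 mice on Affymetrix Mouse Gene 2.0 ST arrays, and each of the 7 had exactly 1 probe set. Levels are log2 intensities, so that a difference of 1 is a 2-fold change. The arrays measured mRNA only, and conjugation of ISG15 to proteins was not measured here.

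The study asked what neural stem cells (NSCs) change in the striatum of a mouse model of dementia with Lewy bodies. ASO mice (PDGF-β-ASO line D) over-expressed human wild-type α-synuclein, with the promoter of the PDGF-β gene driving the transgene, and WT mice were their wild-type littermates. All animals were 12 months old and were of a congenic C57B6/J background. The striatum was injected with GFP-expressing mouse NSCs (NSC) or with saline as vehicle (Veh), and each of the resulting groups, ASO-NSC, ASO-Veh, WT-NSC and WT-Veh, comprised 5 mice. Each array held RNA of 1 mouse. The transplanted cells were themselves from syngeneic mice, so RNA of grafted and host cells cannot be told apart, nor can more cells of a type and more RNA per cell.

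Vehicle mice were born in litters 1, 3 and 5 and NSC mice in litters 3, 4 and 6, and only litter 3 held both treatments. RNA integrity numbers lay between 9.2 and 9.7 and the array medians between 6.168 and 6.281. In 5 arrays (ASO-Veh mice 45 and 47, WT-NSC mouse 54, WT-Veh mice 61 and 62) the genes of the sex chromosomes differed from the labelled sex. All 7 measured markers of striatal spiny neurons lay above the array median in every array. ASO-NSC mouse 59 was left out by the study as an outlier. Its values are given below, but limma was fitted to the other 19 arrays with labelled sex as a covariate, and p-values were adjusted over all 22180 genes (Benjamini-Hochberg, threshold 0.05).

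Type I interferon, released when cells sense viral or misplaced nucleic acid, switches on all genes of this pathway. The E1 enzyme UBA7 activates ISG15, the E2 enzyme UBE2L6 carries it, and the E3 ligase HERC6, which does the work of human HERC5 in mice, places it on newly made proteins. USP18 cuts ISG15 off again and, apart from this activity, binds the interferon receptor chain IFNAR2 and damps its signal. In brain, microglia are among the cells known for strong interferon responses, and mice whose microglia lack Usp18 develop disease of the white matter.

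Usp18 had the largest difference between NSC and vehicle mice among the 7 genes, and Isg15 the smallest. Averaged over both genotypes, Usp18 was 2.32-fold higher, Rnf213 1.61-fold, Herc6 1.53-fold, Trim25 1.31-fold and Ube2l6 1.25-fold higher in NSC mice, and these 5 passed the test, where 0.951% of all genes were called higher. Uba7 and Isg15, with log2 differences of 0.42 and 0.18, did not. All 7 differences were positive in WT mice and in ASO mice. None of the 7 genes differed between genotypes past the threshold, and of all genes 0% did after vehicle and 0.00451% after NSCs.

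Isg15 encodes the modifier and lies on chromosome 4 (GRCm38.p6, chr4:156199424-156200818, minus strand). The sequence before this gene is shown because it holds the letters by which interferon-stimulated factors are known to find their targets. The core of the interferon-stimulated response element (GAAA, any 2 bases, GAAA) was sought on both strands in the 250 bases before the annotated start of 6 of the 7 genes in RefSeq (Usp18 has no entry in the table used). The Rnf213 window (chr11:119389849-119390098, plus strand) is an exception, since it runs past the listed gene start at 119389950 into the gene. Of these 6 windows only that of Isg15 held the core, with 3 overlapping matches that begin 78, 72 and 66 bases before the start (GAAAAGGAAA, GAAACCGAAA and GAAACAGAAA). Of all 32851 promoters of this length, 978 (2.977%) held these letters. A shorter core (AA, any 2 bases, GAAA), chosen after that search, was present in 6999 promoters (21.305%), among them Isg15, with 4 matches of which 3 lie within those of the longer core, and Uba7, which held it on the opposite strand as TTTCACTT, 27 bases before the start. A match of letters is a description and no measured binding site. The sequences run 5′ to 3′ on the strand of the gene, over chr4:156200819-156201068 (minus strand) for Isg15 and chr9:107975317-107975566 (plus strand) for Uba7, with capitals for the longer core in Isg15 and the shorter core in Uba7.
Isg15: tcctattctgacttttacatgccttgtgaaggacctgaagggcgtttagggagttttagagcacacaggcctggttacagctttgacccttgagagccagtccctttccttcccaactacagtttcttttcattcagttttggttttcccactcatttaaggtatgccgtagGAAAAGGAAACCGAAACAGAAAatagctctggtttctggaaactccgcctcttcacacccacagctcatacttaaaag
Uba7: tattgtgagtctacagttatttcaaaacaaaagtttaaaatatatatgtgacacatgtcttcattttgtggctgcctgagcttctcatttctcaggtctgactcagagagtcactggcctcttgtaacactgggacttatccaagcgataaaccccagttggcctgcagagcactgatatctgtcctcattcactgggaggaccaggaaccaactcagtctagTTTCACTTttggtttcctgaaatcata

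The level of Isg15 itself changed little. In WT-Veh mice 61, 62, 64, 66 and 67 the Isg15 level was 5.11, 5.17, 5.30, 5.19 and 4.98, and in WT-NSC mice 53, 54, 58, 70 and 74 it was 5.47, 5.10, 5.16, 5.58 and 5.63. The Isg15 level in ASO-Veh mice 42, 45, 46, 47 and 68 was 5.04, 5.41, 5.22, 4.91 and 5.08, against 5.17, 5.17, 4.91, 5.33 and 5.37 in ASO-NSC mice 56, 57, 59, 73 and 75. WT-NSC mice 53, 70 and 74 alone lay above every vehicle mouse, and the other 17 mice shared a common range. In the limma fit Isg15 differed by 0.23 between WT-NSC and WT-Veh (adjusted p = 0.370) and by 0.13 between ASO-NSC and ASO-Veh (adjusted p = 0.723). Averaged over genotypes the Isg15 difference was 0.18, with a 95% interval of 0.016 to 0.346 and an adjusted p of 0.229. The Isg15 signal was dim, below the array median in all 20 arrays, and no detection call was used here to separate it from background.

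Uba7 encodes the E1 enzyme, which is dedicated to ISG15. With the mice of each group in the order given for Isg15, the Uba7 level was 6.19, 6.39, 6.41, 6.54 and 6.28 in WT-Veh and 7.39, 6.45, 7.27, 6.92 and 6.74 in WT-NSC mice. It was 6.26, 6.82, 6.57, 6.06 and 6.43 in ASO-Veh and 6.49, 6.76, 6.21, 6.58 and 6.90 in ASO-NSC mice. All WT-NSC mice except mouse 54 lay above the WT-Veh range, whereas the ASO groups overlapped widely and only mouse 75 exceeded the highest ASO-Veh mouse. The Uba7 difference was 0.60 in WT mice (adjusted p = 0.119) and 0.25 in ASO mice (adjusted p = 0.659). Without WT-NSC mouse 54 the Uba7 difference of WT mice was 0.76 with an adjusted p of 0.0222, and that over both genotypes passed too (0.50, adjusted p = 0.0195).

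Ube2l6 encodes the E2 enzyme that hands ISG15 to the ligases. Its level in WT-Veh mice was 6.70, 6.21, 6.35, 6.50 and 6.55, and in WT-NSC mice 6.82, 6.70, 6.70, 6.87 and 6.70. ASO-Veh mice had Ube2l6 levels of 6.56, 6.56, 6.48, 6.21 and 6.50, and ASO-NSC mice of 6.60, 6.82, 6.89, 6.80 and 7.09. Every ASO-NSC mouse lay above every ASO-Veh mouse, while in WT mice the groups overlapped through WT-Veh mouse 61. Ube2l6 was the only one of the 7 genes with a larger difference in ASO (0.37, adjusted p = 0.368) than in WT mice (0.28, adjusted p = 0.222). Over both genotypes the Ube2l6 difference was 0.33 with an adjusted p of 0.0279, and this call was lost on leaving out any 1 of 7 mice in turn (adjusted p up to 0.0803).

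Herc6 encodes the ligase that attaches ISG15 in mice. WT-Veh mice had Herc6 levels of 7.57, 7.82, 7.91, 7.78 and 7.86, and WT-NSC mice of 8.85, 8.29, 8.62, 8.46 and 8.34. In ASO mice the Herc6 level was 7.80, 7.90, 8.05, 7.75 and 8.06 after vehicle and 8.23, 8.28, 8.29, 8.38 and 8.80 after NSCs. Herc6 was the only member whose 10 NSC mice, mouse 59 included, all lay above all 10 vehicle mice, with the lowest NSC mouse at 8.23 and the highest vehicle mouse at 8.06. The difference was 0.71 in WT mice (SE 0.115, adjusted p = 0.0141), 0.52 in ASO mice (adjusted p = 0.285) and 0.61 over both (adjusted p = 0.00223).

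Trim25 encodes a RING ligase known for activating the RNA sensor RIG-I, and reported to attach ISG15 as well. Its level was 6.39, 6.23, 6.58, 6.36 and 6.26 in WT-Veh, and 6.98, 6.67, 6.66, 6.74 and 6.92 in WT-NSC mice. Trim25 levels of ASO-Veh mice were 6.25, 6.39, 6.49, 6.21 and 6.37, and those of ASO-NSC mice were 6.54, 6.76, 6.57, 6.82 and 6.70. Within each genotype the NSC mice lay above the vehicle mice with no overlap, by margins of 0.075 (WT) and 0.051 (ASO). The SD of Trim25 was 0.111 to 0.147 in the 4 groups, and the differences of 0.43 in WT mice (adjusted p = 0.0330) and 0.40 over both genotypes (adjusted p = 0.00307) passed the test. In ASO mice the Trim25 difference was 0.36 (adjusted p = 0.319).

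Usp18 encodes the protease that takes ISG15 off its targets. WT-Veh mice had Usp18 levels of 6.24, 6.66, 6.91, 6.57 and 6.75, and WT-NSC mice of 8.50, 7.54, 7.94, 8.35 and 8.30. The Usp18 level of ASO-Veh mice was 6.51, 7.27, 7.07, 6.59 and 7.20, and that of ASO-NSC mice was 7.29, 7.60, 7.14, 8.04 and 8.60. In WT mice a gap of 0.63 separated the groups, the widest gap of the 7 genes, whereas in ASO mice the lowest fitted NSC mouse (mouse 56) was 0.014 above the highest vehicle mouse (mouse 45) and mouse 59 lay below it. The Usp18 difference was 1.44 in WT mice (95% interval 0.99 to 1.90, adjusted p = 0.0117) and 0.98 in ASO mice (0.51 to 1.46, adjusted p = 0.285). Over both genotypes it was 1.21 with an adjusted p of 0.00180, which ranked Usp18 4th by p and 9th by size among 22180 genes.

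Rnf213 encodes a very large ATPase and ubiquitin ligase that is reported to sense proteins bearing ISG15 and to act against microbes. Its level in WT mice was 7.31, 7.18, 7.47, 7.23 and 7.34 after vehicle and 8.66, 7.66, 8.16, 8.05 and 8.14 after NSCs. ASO-Veh mice had Rnf213 levels of 7.30, 7.47, 7.41, 7.18 and 7.43, and ASO-NSC mice of 7.57, 7.67, 7.43, 7.99 and 8.42. Vehicle mice of both genotypes were tightly grouped (SD 0.11 and 0.119), while NSC mice were spread more widely, at SDs of 0.355 in WT and, mouse 59 left out, 0.385 in ASO mice. The groups lay apart in both genotypes except for mouse 59. The Rnf213 difference was 0.80 in WT mice (adjusted p = 0.0235), 0.57 in ASO mice (adjusted p = 0.368) and 0.68 over both (adjusted p = 0.00314).

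**Figure D1:**
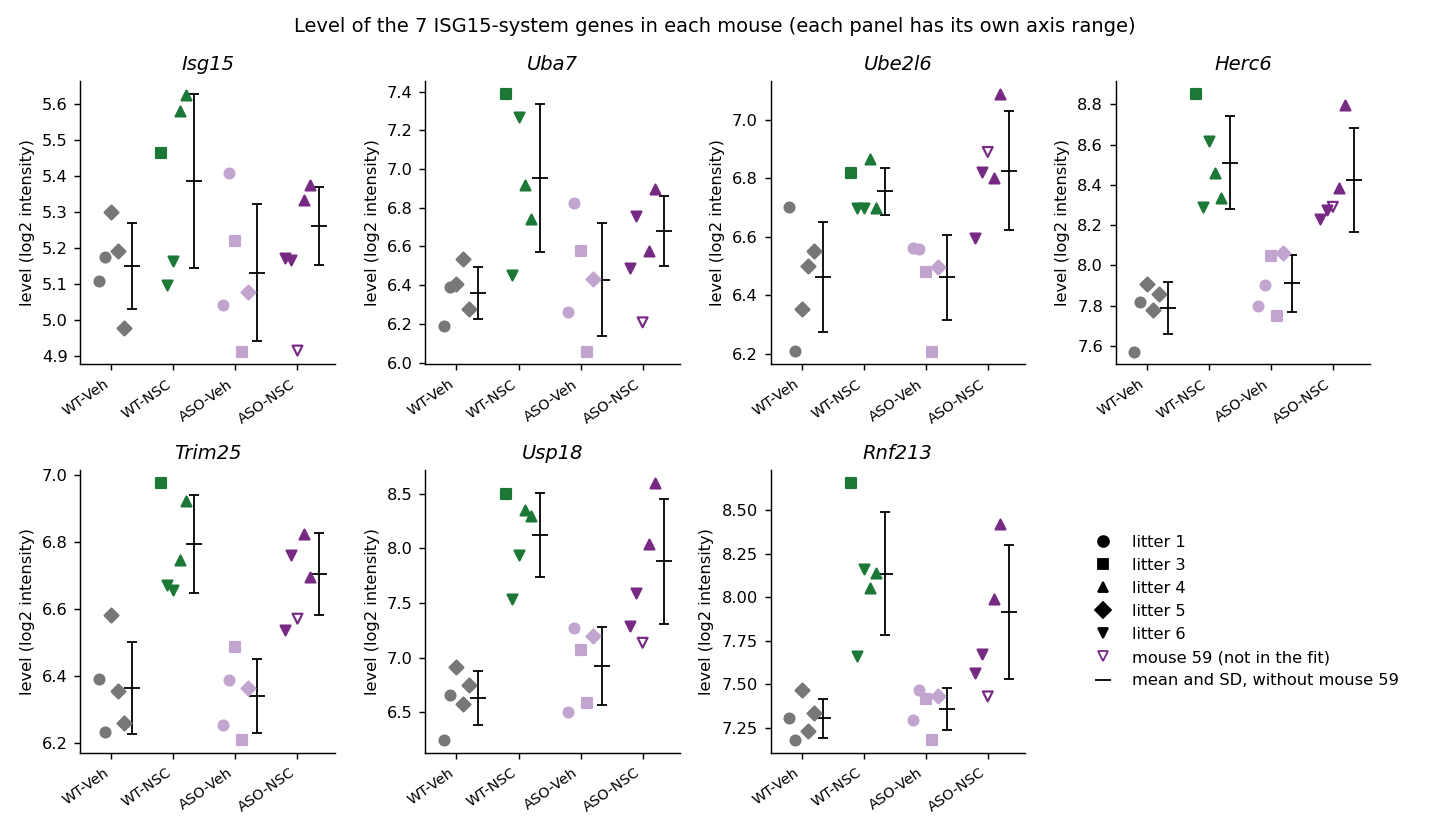
Level of each ISG15-system gene (log2 intensity, vertical axis, with its own range in each panel) in the 20 mice by group (horizontal axis), where symbols give the litter, the open symbol is ASO-NSC mouse 59, and dash and bar give the mean and SD without that mouse. Herc6 shows all NSC mice above all vehicle mice, and Isg15 shows groups that share most of their range.

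Counted over the pathway, 4 of the 7 genes passed at an adjusted p under 0.05 and were higher with NSCs in WT mice (Usp18, Herc6, Rnf213 and Trim25), where 0.37% of all genes were called higher. The same 4 had every WT-NSC mouse above every WT-Veh mouse, as did 1.24% of all genes. The median difference of the 7 genes was 0.60, beside 0.0016 over all genes. These WT calls were sensitive to single arrays, since the count of 4 fell to 0 without WT-Veh mouse 61, to 1 without WT-NSC mouse 58 and to 2 without WT-NSC mouse 53, WT-Veh mouse 62 or WT-Veh mouse 66. It also fell to 0 when the 5 arrays with a mismatch between sex genes and label were left out, though the differences then were 1.50 for Usp18 (adjusted p = 0.0512) and 0.71 for Herc6 (adjusted p = 0.106).

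In ASO mice none of the 7 genes passed in the limma fit, where 0.00902% of all genes (2 genes) did. At an unadjusted p under 0.05, 5 of the 7 were higher (Usp18, Herc6, Trim25, Rnf213 and Ube2l6), as were 5.56% of all genes. With mouse 59 left out, the same 5 had every ASO-NSC mouse above every ASO-Veh mouse, beside 3.01% of all genes. With mouse 59 included, Herc6, Ube2l6 and Trim25 still did, beside 2.51%. The median difference of the 7 genes in ASO mice was 0.37, beside 0.0036 over all genes.

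Over both genotypes 5 of the 7 genes were called higher and none lower, where 0.951% of all genes were called higher and 0.203% lower. When the 5 arrays with such a mismatch were left out, 5 of the 7 genes were called as well. Every fitted NSC mouse lay above every vehicle mouse for Usp18, Herc6 and Rnf213, as for 0.176% of all genes. With mouse 59 included this held for Herc6, beside 0.104% of all genes.

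**Figure D2:**
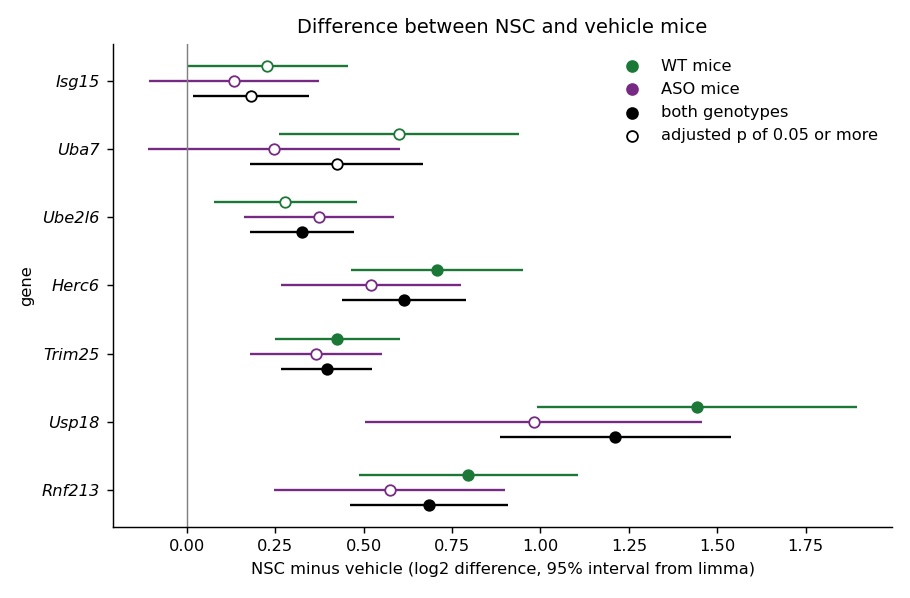
Difference between NSC and vehicle mice for each gene (vertical axis) on the log2 scale (horizontal axis) with its 95% interval from limma, in WT mice, ASO mice and both genotypes, where filled points have an adjusted p under 0.05. Usp18 lies farthest from 0 at 1.21 over both genotypes and Isg15 nearest at 0.18.

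The size of the NSC difference was set side by side for the genotypes. Of the 7 genes, 6 had the smaller difference in ASO mice, by 0.46 for Usp18 (95% interval of the difference of differences, ASO minus WT, -1.12 to 0.20), by 0.35 for Uba7 and by 0.061 for Trim25. Ube2l6 had the larger one, by 0.096 (interval -0.20 to 0.39). None passed the interaction test (adjusted p = 0.9998 for each in limma, with 0% of all genes called). At an unadjusted p under 0.05 none of the 7 passed, where 3.64% of all genes did, and all 7 intervals include 0.

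After vehicle, Usp18 was 0.25 higher in ASO than in WT mice (95% interval -0.21 to 0.70) and Herc6 0.11 higher (-0.13 to 0.35). The other 5 genes differed by between -0.027 (Isg15 and Trim25) and 0.075 (Uba7). No gene of 22180 was called in this comparison (0%), and none of the 7 had an unadjusted p under 0.05, as 4.81% of all genes had. After NSCs the ASO minus WT differences ran from -0.28 for Uba7 and -0.22 for Usp18 to 0.079 for Ube2l6, each with an adjusted p of 1, where 0.00451% of all genes were called. None of the 7 had an unadjusted p under 0.05 there, as 3.05% of all genes had. ASO-NSC mice set against WT-Veh mice differed by 1.23 for Usp18 (adjusted p = 0.0705), 0.63 for Herc6 (adjusted p = 0.0866) and 0.11 for Isg15 (adjusted p = 0.701). In that comparison none of the 7 genes was called at the threshold, where 0.0135% of all genes were, and 5 were higher at an unadjusted p under 0.05, beside 7.37% of all genes. It shares its ASO-NSC and WT-Veh mice with the comparisons above.

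Because treatment and litter nearly coincide, they cannot be told apart outside litter 3. In that litter WT-NSC mouse 53 exceeded both ASO-Veh mice (46 and 47) for all 7 genes, by 1.67 for Usp18, 1.36 for Rnf213, 1.07 for Uba7, 0.95 for Herc6, 0.63 for Trim25, 0.48 for Ube2l6 and 0.40 for Isg15. The share of all genes with this order of the 3 mice was not counted, so the order is a description only. The comparison within litter 3 rests on 1 NSC mouse and also crosses genotypes. A fit with litter as a fixed block rests on the same mouse for the treatment difference. In it only Usp18 passed in limma, with differences of 2.56 in WT mice (adjusted p = 0.0244) and 2.16 over both genotypes (adjusted p = 0.0305). Rnf213 was then 1.51 higher over both genotypes (adjusted p = 0.0898) and Herc6 1.16 higher (adjusted p = 0.207). With litter as a random block (correlation -0.009), the counts of 4 members called in WT mice and 5 over both genotypes did not change. With so small a correlation this fit is nearly the one without a block, so the unchanged counts cannot separate litter from treatment.

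Among NSC mice the litters differed for some of the genes. All NSC mice of litter 4 were labelled female and all of litter 6 male, so litter and labelled sex cannot be told apart here. By its sex genes WT-NSC mouse 54 of litter 6 was female. Its Usp18 (7.54) and Isg15 (5.10) levels were the lowest of the WT-NSC mice, which rests on 1 mouse. The part of sex or litter in these levels was not tested. The 4 NSC mice of litter 4 all lay above the 5 of litter 6 for Usp18, with means of 8.32 and 7.50, and for Isg15, with means of 5.48 and 5.10. For Isg15 this gap of 0.38 exceeded its NSC difference in either genotype. The share of all genes that set litter 4 apart from litter 6 was not counted, so this order cannot be called particular to these genes. Rnf213 was 0.45 higher in litter 4 with overlap, and the other 4 genes by 0.12 to 0.16, also with overlap. Vehicle mice of litters 5 and 1 differed less, by 0.19 for Usp18, by 0.13 for Herc6 and by -0.05 for Isg15, and overlapped for all 7 genes. Within litter 4, ASO-NSC and WT-NSC mice had the same mean Usp18 level (8.32), whereas within litter 6 the ASO-NSC mean was 0.40 lower, mouse 59 included.

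The genes tended to be high in the same mice. ASO-NSC mouse 75 was the highest of its group for 6 genes (all but Trim25), WT-NSC mouse 53 was the highest of its group for 5 (all but Isg15 and Ube2l6), and ASO-Veh mouse 47 was the lowest of its group for 6 (all but Usp18). Across the 20 arrays Pearson's r was 0.945 between Usp18 and Rnf213, 0.938 between Usp18 and Herc6 and 0.928 between Herc6 and Rnf213. The 15 pairs without Isg15 had a median r of 0.796 (0.494 to 0.945), and the 6 pairs with Isg15 one of 0.678 (0.358 to 0.712). These correlations describe points that share groups and litters. After the group means were removed, the medians were 0.591 and 0.57, with Usp18 and Rnf213 still at 0.86 and Isg15 and Usp18 at 0.755.

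**Figure D3:**
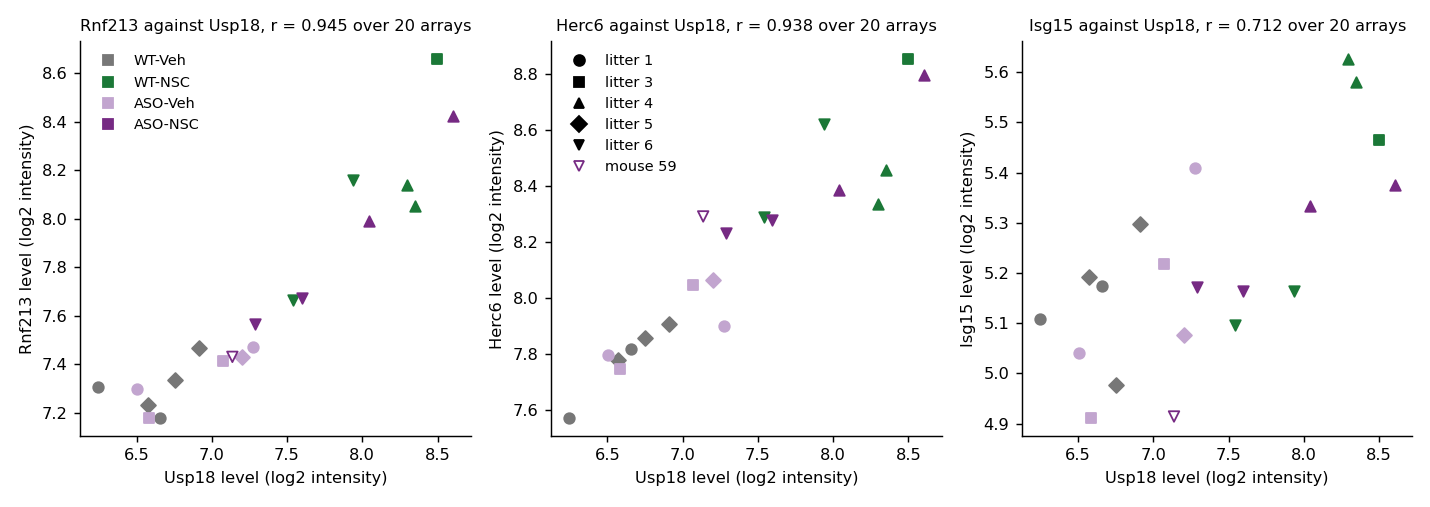
Levels (log2 intensity) of Rnf213, Herc6 and Isg15 (vertical axes) against Usp18 (horizontal axes) in the 20 mice, where colours give the group, symbols the litter and the open symbol mouse 59. Rnf213 and Herc6 follow Usp18 closely (r of 0.945 and 0.938), and the Isg15 panel separates NSC mice of litter 4, all labelled female, from those of litter 6, all labelled male.

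Of all measured genes, the 8 whose levels followed Isg15 most closely over the 20 arrays were Isg20 (r = 0.841), an interferon-induced exonuclease, Siglec1 (0.777), a sialic acid receptor of macrophages, Irf7 (0.766), a transcription factor that amplifies interferon production, Med4 (0.764), a Mediator subunit, Oas2 (0.763), which makes 2′-5′ oligoadenylates upon binding double-stranded RNA, Tor3a (0.731), Rnf40 (0.727) and H2bl1 (0.718). Usp18 came next at rank 9 (r = 0.712), followed among the members by Uba7 at rank 14, Rnf213 at 17 and Trim25 at 18. Herc6 (r = 0.495, rank 251) and Ube2l6 (r = 0.358, rank 1201) followed Isg15 less closely. The ranking was not stable, since 2 of the 8 genes stayed in the leading 8 after group means were removed, and 5 of them without mouse 59.

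Genes that act before and after the ISG15 enzymes were counted in lists chosen, like the members, with earlier results known. Of 13 measured genes for interferon receptors, their kinases and transcription factors, Irf9 (0.58, adjusted p = 0.00998), the DNA-binding part of the complex that interferon activates, and Irf7 (0.55, adjusted p = 0.0359) passed over both genotypes. Stat2, the partner of Irf9, differed by 0.41 (adjusted p = 0.0776), and the receptor chain genes Ifnar1 and Ifnar2 by 0.086 and 0.15 without passing. The median of this list was 0.12, beside 0.42 for the 7 members and 0 over all genes, and 10 of its 13 differences were positive. Irf8 (-0.18), Tyk2 (-0.11) and Jak2 (-0.077) were lower in NSC mice without passing.

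Among 11 measured genes whose products are reported to carry ISG15, Ifit1 (1.23, adjusted p = 0.00223), which binds viral RNA ends, Eif2ak2 (0.68, adjusted p = 0.00578), the kinase PKR, and Ddx58 (0.62, adjusted p = 0.00223), the RNA sensor RIG-I, passed, and the list median was 0.076. Each of these 3 is itself interferon-induced. The 8 others, among them Mx1 (0.30, adjusted p = 0.105 in limma), did not pass. Of 4 receptors or readers of ISG15, Itgb2, a chain of the integrin LFA-1 on leukocytes and microglia, passed (0.35, adjusted p = 0.0293). Itgal, the other chain of LFA-1, differed by 0.015 (adjusted p = 0.932).

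Of 14 measured ubiquitin genes and relatives of the ISG15 enzymes, Trim21, an antibody-binding ligase that interferon also induces, passed (0.58, adjusted p = 0.0318), while the E2 gene most like Ube2l6, Ube2l3, differed by 0.069 and the ligase gene Herc3 by 0.016. The list median was 0.021. None of 18 genes for the SUMO, NEDD8, UFM1 and ATG systems passed (differences -0.17 to 0.13, median 0.057). In WT mice alone Ifit1 (1.32) and Ddx58 (0.65) passed from these 5 lists, and in ASO mice alone no gene did.

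Some microglial and astrocyte markers were higher in NSC mice as well. Over both genotypes 4 of 9 microglial markers passed, C1qb (0.52), C1qa (0.46), Itgam (0.29) and Csf1r (0.27), with a list median of 0.27, while P2ry12 (0.13), Cx3cr1 (0.12) and Tmem119 (0.082) did not. The mean level of the 9 was 8.045 to 8.266 in WT-Veh and 8.326 to 8.769 in WT-NSC mice, and 8.113 to 8.202 in ASO-Veh and 8.21 to 8.496 in ASO-NSC mice, so that the groups lay apart in each genotype. Of 8 astrocyte markers Gfap (0.75) and Aqp4 (0.38) passed, and their mean level was also apart, at 9.754 to 10.031 against 10.04 to 10.255 in WT and 9.924 to 10.014 against 10.053 to 10.361 in ASO mice. The part of these cells in the members' differences was not tested.

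None of 8 markers of blood monocytes and neutrophils passed (median -0.058), nor of 8 of T and B cells (median 0.036). The mean levels of both lists overlapped between NSC and vehicle mice. In the monocyte and neutrophil list 2 of 8 differences were positive, and the largest was that of Lyz2 (0.51, adjusted p = 0.122 in limma). Of 9 stem and progenitor markers Vim (0.51) alone passed, and none of 7 oligodendrocyte, 6 endothelial and 7 spiny neuron markers did. Over both genotypes all 7 oligodendrocyte differences were positive (median 0.16), as were all 6 endothelial ones (median 0.082). All 7 spiny neuron differences were negative (median -0.11). The spiny neuron median was -0.026 in WT mice, with 2 of 7 differences positive, and -0.16 in ASO mice, with none positive. The mean oligodendrocyte level overlapped between the WT groups and was apart in ASO mice, at 9.886 to 9.941 against 9.956 to 10.261. WT-NSC mouse 58 had the highest mean level of all 20 mice for microglia (8.769), for monocytes and neutrophils (5.614) and for T and B cells (5.646). Among WT-NSC mice only mouse 53 exceeded its Uba7 (7.27), Rnf213 (8.16) and Herc6 (8.62) levels. Its Trim25 (6.66) and Ube2l6 (6.70) levels were the lowest of that group, and only mouse 54 lay below its Usp18 (7.94) and Isg15 (5.16) levels. Without mouse 58 the count of members called in WT mice fell from 4 to 1, and without WT-Veh mouse 61 it fell further. A link between these marker levels and the members was not tested.

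**Figure D4:**
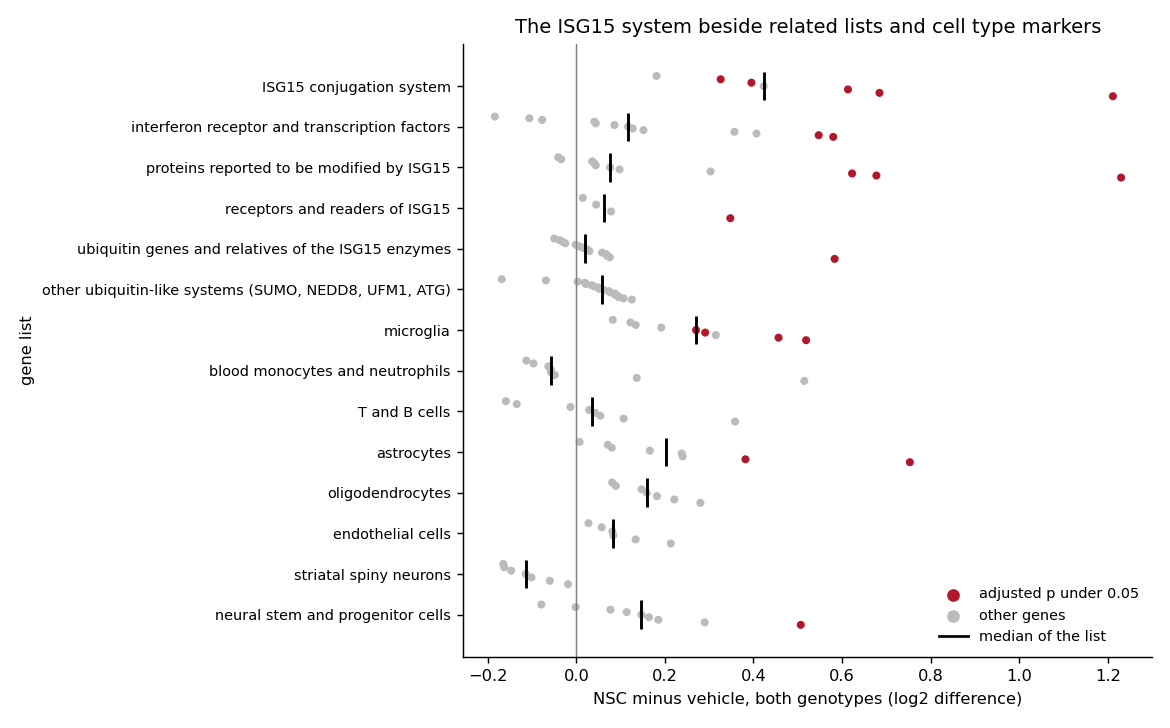
Difference between NSC and vehicle mice over both genotypes (log2, horizontal axis) for each gene of the ISG15 system, of 5 related lists and of 8 cell type marker lists (vertical axis), with genes of an adjusted p under 0.05 in red and each list's median as a line. The ISG15 system has a median of 0.42, microglia one of 0.27 and other ubiquitin-like systems one of 0.057.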

How the data were processed

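RNA of microdissected dorsal striatum was measured on Affymetrix Mouse Gene 2.0 ST arrays. The deposited log2 intensities come from RMA, which the authors ran with "core" summarization in oligo and which removes background, puts arrays on a common distribution and combines the probes of a set. Neither their variance filter nor their correction for sex is present in these values, and whether litter was corrected for is not given in the sources used here. Of 41345 probe sets, 23521 carried exactly 1 symbol and gave 22180 genes. Where a gene had several probe sets (1082 genes), the one of widest interquartile range was kept. The labels gave each mouse's group, litter, sex and RNA integrity. There is no depth on arrays, and precision is limited by how many mice were used.

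limma 3.58.1 (R 4.3.3) fitted a coefficient for each group and labelled sex on 19 arrays, with 14 residual and 18.2 total degrees of freedom, and p-values were adjusted by Benjamini-Hochberg over all genes. The code was tested on simulated data. Correlations, counts and plots used Python 3.11.15, numpy 2.4.6, pandas 2.3.3 and matplotlib 3.10.9. Promoter sequences are the 250 bases before the annotated start in RefSeq (GRCm38.p6), but the Rnf213 window runs past the listed gene start. Named genes are the 7 members, up to 4 genes of each related or marker list with the largest moderated statistic, others of these lists beside them, and the 8 genes most correlated with Isg15. The members and lists were chosen with earlier results of these data known. As alternatives, the model was refitted on all 20 arrays, with other terms for sex (none, read from the genes, or joined by RNA integrity), with litter as a fixed or random block, on the compared groups alone, with a trended robust prior, on averaged probe sets, after filters on variability or level, after median centring, without each mouse in turn, and without the 5 arrays of differing sex genes. Some listed genes are not reported here, and a planned comparison of protein sequences was not run.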

Additional observations from a re-analysis of the deposited data

Results flagged for a closer look

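In groups of 5 mice, the gap between an extreme mouse and its nearest neighbour was compared with the range of the group for each of the 7 genes in each of the 4 groups. Of these 28 groups 2 held a mouse that stood apart, about as many as chance gives at 1 in 20. The Herc6 level of ASO-NSC mouse 75 was 8.8, with the other 4 mice of the group between 8.23 and 8.38. The Ube2l6 level of ASO-Veh mouse 47 was 6.21, with the others between 6.48 and 6.56, and the sex genes of this array differed from its label.

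ASO-NSC mouse 59, which the limma fit left out, lay above every ASO-Veh mouse for Herc6 (8.29), Ube2l6 (6.89) and Trim25 (6.57). For Usp18 (7.14), Rnf213 (7.43), Uba7 (6.21) and Isg15 (4.91) it lay within the ASO-Veh range or at its lower end.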

How the results depend on the processing

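Of 1554 values recomputed for the members under other settings, 1491 kept their direction and their side of the threshold, 36 lost the call, 6 gained one and 21 changed sign. The count of 4 members called in WT mice became 0 without the 5 arrays of differing sex genes, 1 with litter as a fixed block and 1 with only the groups compared, and 0 to 5 on leaving out each mouse. Over both genotypes the count of 5 became 1 with litter as a fixed block and 4 to 6 on leaving out each mouse. For ASO-NSC against WT-Veh the count of 0 became 1 with all 20 arrays (Herc6), 1 with sex and RNA integrity (Usp18) and 2 among the 11090 more variable genes (Usp18 and Herc6). Of the 8 genes most like Isg15, 2 stayed with group means removed and 5 without ASO-NSC mouse 59. Over all genes, 96 were called in WT mice, against 2 with litter as a fixed block, 2 without the arrays of differing sex genes, 5 with only the groups compared and 4 to 277 on leaving out each mouse. Over both genotypes 256 genes were called, against 480 with all 20 arrays, 394 with a mean level of at least 5, 393 with sex from the genes, 99 without the arrays of differing sex genes, 2 with litter as a fixed block and 97 to 1004 on leaving out each mouse. In ASO mice 2 genes became 0 to 4, and for ASO-NSC against WT-Veh 3 genes became 0 to 18, over the settings other than leaving out a mouse. The cause of these shifts was not tested.

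All changes of sign were in differences that did not pass. For ASO against WT after vehicle, Isg15 (-0.027) was 0.0023 with sex from the genes, 0.13 with litter as a fixed block and 0.023 with only the groups compared. Ube2l6 (-0.017) was 0.032 with sex from the genes, 0.047 without the arrays of differing sex genes and 0.076 with the block, and Trim25 (-0.027) was 0.088 with the block and 0.0012 with only the groups compared. Leaving out each mouse gave -0.12 to 0.030 for Isg15, -0.070 to 0.051 for Ube2l6, -0.075 to 0.026 for Trim25, -0.042 to 0.16 for Uba7 and -0.051 to 0.078 for Rnf213. It gave -0.0051 to 0.14 for Ube2l6 after NSCs, and -0.18 to 0.0065 for Isg15 in the difference of the NSC effect.

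No paired analysis was possible because the labels number mice and no number recurs between the groups. Litter was used as a block in alternative fits only, and the main fit held no term for litter. The intervals cover the spread between mice only, with 4 fitted mice in ASO-NSC, 5 in each other group and litters nearly confounded with treatment.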
